A study of Mus musculus with 9 samples.

Results

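Transcripts of the mitochondrial genome were followed in RNA sequencing of dissected ventral midbrain from 180-day-old mice with 3 Dot1l genotypes. The members are the rows of the count files whose Ensembl identifiers map to mt-Rnr1, mt-Rnr2, mt-Nd1, mt-Nd2, mt-Co1, mt-Nd4, mt-Nd5, mt-Nd6 and mt-Cytb, the well counted rRNA and protein genes of the mitochondrial genome. They are 9 of the 37 mitochondrial genes with a row and 9 of 47729 genes in all. All 9 passed the filter on low counts.

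Every mouse carried a Pitx3-Cre/+ allele and the Rosa-lox-stop-lox-Yfp reporter on a C57/Bl6 background, and the groups differed in Dot1l, the methyltransferase of histone H3 lysine 79: Dot1l(+/+) had no floxed allele, Dot1l(fl/+) had 1 and Dot1l(fl/fl) had 2. There were 3 libraries per genotype and each came from the combined tissue of 3 mice, which makes the pool the replicate. The floxed segment is a single exon of Dot1l, and Cre is made from the Pitx3 locus, which in the midbrain is active in dopamine neurons, and cells that never made Cre keep an intact gene. The labels call the tissue midbrain dopamine neurons, whereas the methods describe a dissection without sorting, and markers of other cells were abundant: the summed level of 6 oligodendrocyte genes was 10020 to 11620 CPM, counts scaled to the total of a library, against 460 to 685 CPM for 9 dopamine neuron genes.

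In a bulk sample fewer cells of a type and less RNA per cell cannot be told apart. Library totals lay between 16422135 and 28403218 counts. Dot1l itself measured 60.6 to 85.2 CPM over the 9 libraries, with log2 fold changes against Dot1l(+/+) of -0.18 for 1 and -0.07 for 2 floxed alleles (adjusted p = 0.62 and 0.999, edgeR quasi-likelihood test with Benjamini-Hochberg adjustment). A count over the whole gene does not separate the floxed exon, so it does not check the labels. The summed dopamine neuron level was 617 to 685 CPM in Dot1l(+/+), 484 to 624 CPM in Dot1l(fl/+) and 460 to 499 CPM in Dot1l(fl/fl). Tissue next to the dissected area was also present to different degrees. The summed level of 5 choroid plexus genes (Ttr, Clic6, Folr1, Kcnj13 and Kl) was 58.3 to 146 CPM in Dot1l(+/+), 105 to 578 CPM in Dot1l(fl/+) with the highest value in replicate 3, and 30.9 to 38.2 CPM in Dot1l(fl/fl), below all other libraries. Taken singly, Clic6, Kcnj13 and Kl overlapped between Dot1l(fl/fl) and Dot1l(+/+), and Ttr and Folr1 did not. Pmch and Hcrt, neuropeptide genes of the lateral hypothalamus, together had 116 and 52.7 CPM in Dot1l(fl/+) replicates 1 and 3 and 0.473 to 7.36 CPM in the other 7 libraries. These lists were chosen after such genes were seen to differ, and their part in the members' values was not tested.

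The mitochondrial genome is a small circle that each cell holds in many copies. It is transcribed by its own polymerase, Polrmt, from both strands into long precursors. Transfer RNAs punctuate the precursors and are cut out, which releases the mRNAs and rRNAs. Nearly all protein genes and both rRNAs are made as heavy-strand transcripts, in which the rRNAs come first, whereas mt-Nd6 is the only protein made from the light-strand transcript. The 13 proteins are all subunits of the respiratory chain and of ATP synthase, whose other subunits come from nuclear genes.

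**Figure D1:**
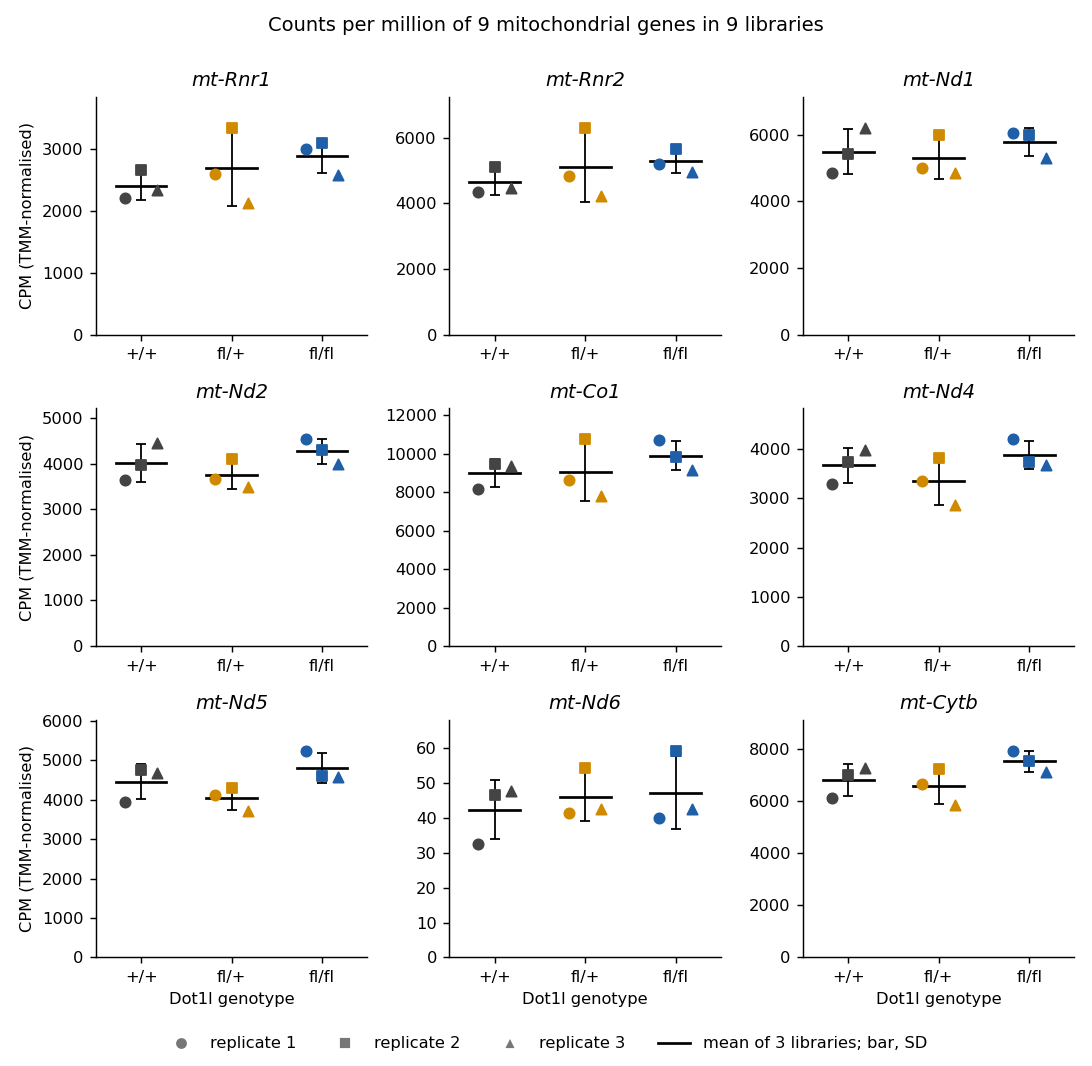
Level of each of the 9 mitochondrial genes (y axis, TMM-normalised CPM, from 0) in the 3 Dot1l genotypes (x axis). Each symbol is 1 library, a pool of 3 mice, the symbol shape is the replicate number, and the line and bar are the mean and SD of 3 libraries. The genotypes overlap in every panel, except that the 3 Dot1l(fl/fl) libraries lie above the 3 Dot1l(fl/+) libraries for mt-Nd5, as 11.1% of all genes did not overlap in that comparison.

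Only part of the mitochondrial genome had counts in these files, and the mRNA genes outside the 9 had almost none. mt-Co2, mt-Co3 and mt-Atp6 had 3 to 15 counts per library, mt-Nd3 and mt-Nd4l had 0 or 1, and mt-Atp8 had 0 in all 9 libraries. These encode subunits of cytochrome c oxidase, ATP synthase and complex I. The GENCODE annotation places near-identical pseudogenes of 7 neighbouring mitochondrial genes on chromosome 1. They run from the copy of mt-Co1 to the copy of mt-Nd4 in the order of the mitochondrial genome. mt-Co2 equals its copy Gm28661 in all 681 aligned bases, and the first 60 bases of both are shown because a read that lies within them matches both equally (GRCm38, sense strand of each gene).
mt-Co2, chrM:7013-7072: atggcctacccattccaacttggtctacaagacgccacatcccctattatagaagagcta
Gm28661, chr1:24615506-24615565, minus strand: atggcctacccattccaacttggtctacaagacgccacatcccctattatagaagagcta

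mt-Co1, a member, has a copy on chromosome 1, Gm29216, over its 3′ part. Gm29216 starts at base 6381 of the mitochondrial genome and differs from it in 6 of 492 bases, a 98.78% identity. All 6 differences lie in the first 60 bases of the copy, which are shown with the differing bases in capitals.
mt-Co1, chrM:6381-6440: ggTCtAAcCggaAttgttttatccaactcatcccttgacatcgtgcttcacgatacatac
Gm29216, chr1:24616138-24616197, minus strand: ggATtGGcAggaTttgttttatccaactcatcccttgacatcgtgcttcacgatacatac

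mt-Nd4, the other member with a long copy, equals Gm28439 over its first 876 bases. The 60 bases around the end of the copy are shown with the part that aligns to it in capitals.
mt-Nd4, chrM:11013-11072: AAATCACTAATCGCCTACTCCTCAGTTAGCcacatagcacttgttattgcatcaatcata

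Shared sequence was counted as the percent of a gene's 50-base words that occur in a nuclear transcript of the annotation. That share was 100% for mt-Co2, 99.9% for mt-Co3, 99.5% for mt-Atp6, 98.8% for mt-Nd4l and 98.0% for mt-Nd3, the genes with 0 to 15 counts. Of the members, mt-Nd4 shared 62.2%, mt-Co1 51.1%, mt-Nd2 8.19%, mt-Nd5 7.61% and mt-Rnr2 1.04%, and mt-Rnr1, mt-Nd1, mt-Nd6 and mt-Cytb shared none. The copies had few counts as well. Gm28661 had 3 to 8, Gm28439 4 to 10 and Gm29216 3 to 10 counts per library. Of the copies listed, which leave out 1 chromosome, the highest was Gm13340, a copy of mt-Co1 on chromosome 2 that shared 411 of its words where Gm29216 shared 430, with 46 to 96. Gm28438, which differs from mt-Nd3 in 1 of 345 bases, had 37 to 70 counts, more than mt-Nd3 in every library. mt-Atp8 stood apart, since it shared no word with an annotated nuclear transcript and still had no count; the sequence between the copies of mt-Co2 and mt-Atp6, which carries no annotated gene, was not compared here. How the reads were assigned is not given in the sources used here, and the part of shared sequence in these counts was not tested.

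**Figure D2:**
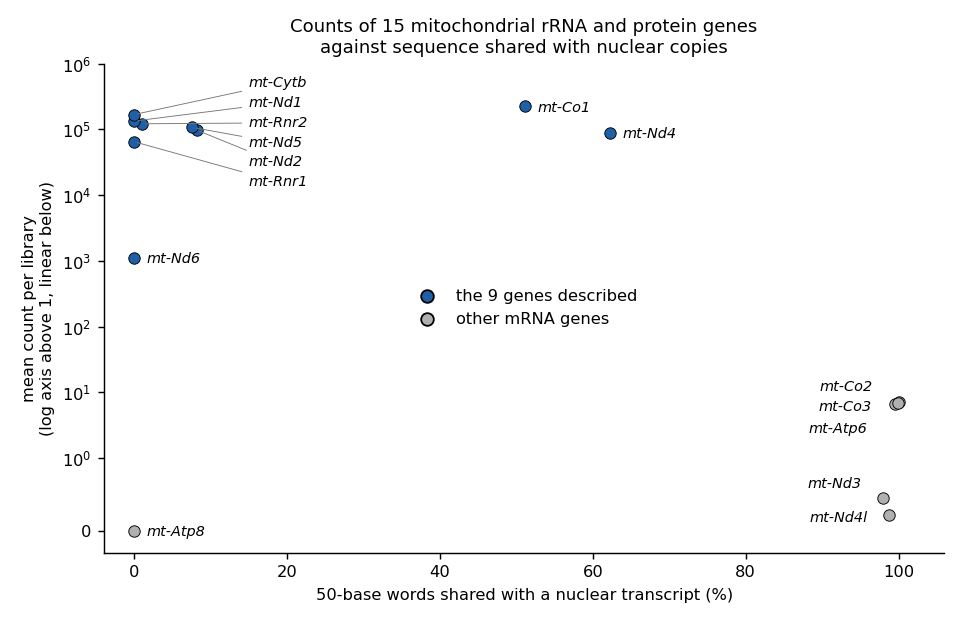
Mean count per library (y axis, log scale above 1 and linear below) against the percent of 50-base words shared with nuclear transcripts (x axis) for the 13 mitochondrial protein genes and 2 rRNA genes. The 9 genes described (blue) have up to 62.2% shared words, the 5 grey genes at the lower right have 98.0 to 100%, and mt-Atp8 is at 0 on both axes.

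The 9 members held 99.9% of all counts on the mitochondrial genome. Of the 22 tRNA genes, 13 had no count in any library. mt-Ti, the isoleucine tRNA gene, which overlaps the end of mt-Nd1, had the most, with 245 to 491 counts per library, and mt-Tw, which overlaps the end of mt-Nd2, had 155 to 375. In the other direction, 9 genes are annotated on the minus strand of the reference, mt-Nd6 and 8 tRNA genes. mt-Tp was the highest of those tRNAs, with 56 to 114 counts.

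Levels per length differed widely between the members. On the scale of CPM per kilobase of gene, the means over 9 libraries were 6080 for mt-Cytb, 6040 for mt-Co1 and 5770 for mt-Nd1. These neighbours overlapped, and mt-Cytb was above mt-Co1 in 6 of 9 libraries. mt-Nd2 followed with 3860, mt-Rnr2 with 3170, mt-Rnr1 with 2790, mt-Nd4 with 2630 and mt-Nd5 with 2430, and their ranges overlapped from each gene to the next. Within a library, mt-Nd2 was above mt-Rnr2 in 8 of 9 and mt-Rnr2 above mt-Rnr1 in 9 of 9. mt-Rnr1 was above mt-Nd4 in 7 of 9 and mt-Nd4 above mt-Nd5 in 9 of 9. The rRNAs, which are usually the most abundant RNAs of the organelle, were thus not the highest in these libraries. How ribosomal RNA was removed before sequencing is not given in the sources used here. mt-Nd6 had a mean of 87.1 CPM per kilobase, below every other member in 9 of 9 libraries.

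The order depends on how shared sequence is treated. Expressed as CPM per 1000 words of 50 bases that are not shared, mt-Co1 came first with 12800 and mt-Nd4 second with 7230, both above mt-Cytb (6360) in 9 of 9 libraries. mt-Nd5 (2700) and mt-Nd6 (96.1) remained last. Levels of mt-Co1 and mt-Nd4 relative to the others are therefore uncertain, while a comparison of 1 gene between genotypes uses the same length on both sides.

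Between the genotypes, no member passed the test. In each of the 3 pairs of genotypes, 0 of 9 members and 0% of the 17671 genes tested had an adjusted p under 0.05. At an unadjusted p under 0.05 there were 0 of 9 members in Dot1l(fl/+) against Dot1l(+/+), beside 8.39% of all genes (1483 genes). In Dot1l(fl/fl) against Dot1l(+/+) the count was also 0 of 9, beside 3.93% (694 genes). In Dot1l(fl/fl) against Dot1l(fl/+) it was 4 of 9, all higher in Dot1l(fl/fl), beside 6.48% of all genes (1145 genes) and 3.6% counted as higher. DESeq2 on all 9 libraries called 7, 3 and 11 genes in these comparisons. Without the filter on low counts edgeR gave mt-Rnr1 an adjusted p of 0.00698 in Dot1l(fl/fl) against Dot1l(+/+) and mt-Nd5 one of 0.0212 in Dot1l(fl/fl) against Dot1l(fl/+). That setting called 251 genes in Dot1l(fl/+) against Dot1l(+/+), and the other pairs also had many calls, as listed in the closing section. The filtered fit called 0 in each pair. The libraries of the genotypes did not overlap for 0, 0 and 1 of the members, beside 13.3%, 10.3% and 11.1% of all genes.

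**Figure D3:**
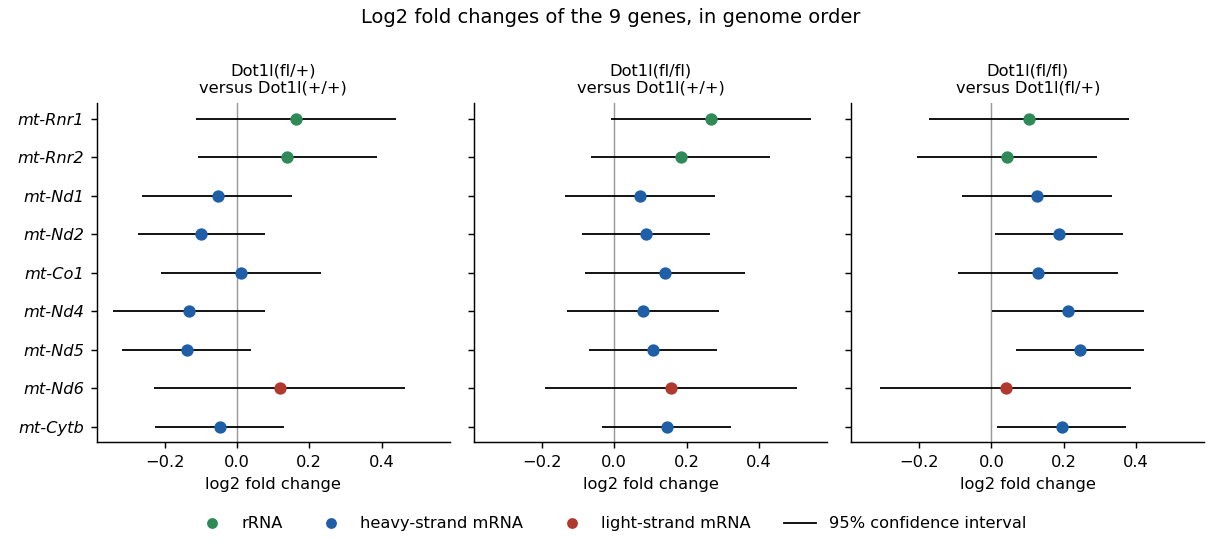
Log2 fold change (x axis) of each member (y axis, in genome order) in the 3 comparisons, with 95% confidence intervals from the edgeR fit and the class of the RNA by colour. In the first panel the 2 rRNAs and mt-Nd6 lie to the right of 0 and 5 of the 6 heavy-strand mRNAs to the left, in the other two panels all 9 lie to the right, and only 4 intervals of the right panel leave out 0.

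The rRNAs are described first. mt-Rnr1 (ENSMUSG00000064337, chrM:70-1024) is the RNA of the small subunit of the mitochondrial ribosome. It measured 2214, 2662 and 2340 CPM in Dot1l(+/+) replicates 1, 2 and 3, 2604, 3345 and 2137 CPM in Dot1l(fl/+), and 3007, 3095 and 2586 CPM for Dot1l(fl/fl). The Dot1l(fl/+) libraries held both the highest and the lowest of the 9 values. Compared with controls, Dot1l(fl/+) had a log2 fold change of 0.16 (SE 0.13, adjusted p = 0.758) and Dot1l(fl/fl) one of 0.27 (95% confidence interval -0.01 to 0.55, unadjusted p = 0.0569, adjusted p = 0.999), which was the highest estimate of a member in that comparison. Of the Dot1l(fl/fl) libraries, 2 of 3 lay above all controls.

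mt-Rnr2 (ENSMUSG00000064339, chrM:1094-2675), the RNA of the large subunit, had 4350, 5107 and 4482 CPM in Dot1l(+/+), 4840, 6291 and 4222 CPM in Dot1l(fl/+) and 5209, 5653 and 4967 CPM for Dot1l(fl/fl). The pattern was that of mt-Rnr1, with replicate 2 highest in each genotype. The log2 fold changes against Dot1l(+/+) were 0.14 in Dot1l(fl/+) (adjusted p = 0.775) and 0.18 for Dot1l(fl/fl) (adjusted p = 0.999).

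Complex I, the NADH dehydrogenase that starts the respiratory chain, has most of the members. mt-Nd1 (ENSMUSG00000064341, chrM:2751-3707) measured 4843, 5434 and 6202 CPM in Dot1l(+/+), 5015, 5999 and 4854 CPM in Dot1l(fl/+), and 6047, 5985 and 5290 CPM for Dot1l(fl/fl). The highest value was that of a control library. Its log2 fold changes against Dot1l(+/+) were -0.05 in Dot1l(fl/+) and 0.07 for Dot1l(fl/fl), each smaller than its SE of 0.10.

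mt-Nd2 (ENSMUSG00000064345, chrM:3914-4951) had 3632, 3960 and 4457 CPM in Dot1l(+/+), 3657, 4105 and 3492 CPM in Dot1l(fl/+) and 4529, 4291 and 3980 CPM for Dot1l(fl/fl). Between the floxed genotypes 2 of 3 Dot1l(fl/fl) libraries exceeded every Dot1l(fl/+) library. The log2 fold change of Dot1l(fl/fl) over Dot1l(fl/+) was 0.19 (SE 0.08, unadjusted p = 0.0408, adjusted p = 0.758).

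mt-Nd4 (ENSMUSG00000064363, chrM:10167-11544) had 3286, 3733 and 3991 CPM in Dot1l(+/+), 3344, 3830 and 2866 CPM in Dot1l(fl/+), and 4199, 3746 and 3684 CPM for Dot1l(fl/fl). The lowest value, in Dot1l(fl/+) replicate 3, stood below all the others. Dot1l(fl/+) was lower than Dot1l(+/+) in mean, with a log2 fold change of -0.13 (adjusted p = 0.74) that moved to -0.03 if Dot1l(fl/+) replicate 3 is left out and to -0.24 if its replicate 2 is, and Dot1l(fl/fl) was higher than Dot1l(fl/+) by 0.21 (SE 0.10, unadjusted p = 0.0494, adjusted p = 0.768).

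mt-Nd5 (ENSMUSG00000064367, chrM:11742-13565), the longest of the 9 genes, was the 1 of 9 members for which 2 genotypes did not overlap, a share equal to the 11.1% over all genes. It measured 3948, 4736 and 4681 CPM in Dot1l(+/+), 4120, 4300 and 3714 CPM in Dot1l(fl/+), and 5237, 4587 and 4562 CPM for Dot1l(fl/fl). All 3 Dot1l(fl/fl) libraries lay above all 3 Dot1l(fl/+) libraries, and the controls overlapped both. The mean was 4045 ± 300 CPM (SD, n = 3) in Dot1l(fl/+) and 4795 ± 383 CPM (SD, n = 3) in Dot1l(fl/fl). Between them the log2 fold change was 0.25 (95% confidence interval 0.07 to 0.42), with an unadjusted p = 0.0103 and an adjusted p = 0.712. Against Dot1l(+/+) it was -0.14 in Dot1l(fl/+) (95% confidence interval -0.32 to 0.04) and 0.11 for Dot1l(fl/fl) (-0.07 to 0.28).

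The later complexes have 2 members. mt-Cytb (ENSMUSG00000064370, chrM:14145-15288), the cytochrome b of complex III, had 6113, 7001 and 7266 CPM in Dot1l(+/+), 6645, 7226 and 5848 CPM in Dot1l(fl/+) and 7920, 7517 and 7113 CPM for Dot1l(fl/fl). Its 2 highest values were Dot1l(fl/fl) libraries. Dot1l(fl/fl) exceeded Dot1l(fl/+) by a log2 fold change of 0.19 (SE 0.08, unadjusted p = 0.0357, adjusted p = 0.745) and Dot1l(+/+) by 0.15 (unadjusted p = 0.101, adjusted p = 0.999).

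mt-Co1 (ENSMUSG00000064351, chrM:5328-6872), the catalytic subunit of cytochrome c oxidase in complex IV, had the most counts of any member. It measured 8163, 9473 and 9357 CPM in Dot1l(+/+), 8666, 10753 and 7791 CPM in Dot1l(fl/+), and 10710, 9859 and 9173 CPM for Dot1l(fl/fl). The Dot1l(fl/+) libraries spanned the whole range of the 9 values. The log2 fold changes against Dot1l(+/+) were 0.01 in Dot1l(fl/+) (SE 0.10) and 0.14 for Dot1l(fl/fl) (SE 0.10).

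mt-Nd6 (ENSMUSG00000064368, chrM:13552-14070, minus strand), the complex I subunit from the light strand, was counted least, with 689 to 1532 reads per library. It had 32.6, 46.6 and 47.8 CPM in Dot1l(+/+), 41.4, 54.1 and 42.5 CPM in Dot1l(fl/+) and 39.8, 59.2 and 42.6 CPM for Dot1l(fl/fl). Replicate 2 was highest in both floxed genotypes, and each comparison overlapped. Relative to controls, Dot1l(fl/+) had a log2 fold change of 0.12 (SE 0.16, adjusted p = 0.879), and Dot1l(fl/fl) one of 0.16 (SE 0.16, adjusted p = 0.999). The intervals against Dot1l(+/+) were the widest of the members, -0.23 to 0.47 and -0.19 to 0.51.

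The spread within a genotype was far larger than counting error. The coefficient of variation of 3 libraries ran from 5.37% (mt-Cytb in Dot1l(fl/fl)) to 22.6% (mt-Rnr1 in Dot1l(fl/+)), while the counting error at the lowest count was 0.221 to 0.484% for the 8 heavy-strand members and 3.08 to 3.81% for mt-Nd6. Much of the spread was common to the members. In Dot1l(+/+), replicate 1 was lowest for 9 of 9 members. Replicate 2 was highest for 9 of 9 in Dot1l(fl/+), where replicate 3 was lowest for 8 of 9. In Dot1l(fl/fl), replicate 1 was highest for all 6 heavy-strand mRNAs and replicate 3 lowest for 8 of 9 members. So 1 library could decide a count. Without Dot1l(fl/+) replicate 2 the members with an unadjusted p under 0.05 in Dot1l(fl/fl) against Dot1l(fl/+) numbered 8 of 9, and without Dot1l(fl/+) replicate 3 or without Dot1l(fl/fl) replicate 1 there were 0. The share of all genes at that level in these refits is not given here, so the counts show only their dependence on 1 library.

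The share of all counts on the mitochondrial genome, over its 37 genes, followed the same libraries. It was 3.68, 4.23 and 4.27% in Dot1l(+/+), 3.89, 4.58 and 3.53% in Dot1l(fl/+), and 4.63, 4.46 and 4.16% for Dot1l(fl/fl). The means were 4.06% ± 0.33, 4.00% ± 0.53 and 4.42% ± 0.24 (SD, n = 3). Dot1l(fl/fl) thus exceeded Dot1l(+/+) by 0.36 and Dot1l(fl/+) by 0.42 percentage points, with overlapping libraries in both cases. Leaving out Dot1l(+/+) replicate 1 gave 0.17 for the first. Of the Dot1l(fl/+) libraries, leaving out replicate 3 gave 0.18 for the second and leaving out replicate 2 gave 0.71.

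By direction, 4 members had positive log2 fold changes in Dot1l(fl/+) against Dot1l(+/+), namely both rRNAs, mt-Nd6 and mt-Co1, and 5 had negative ones. Without Dot1l(fl/+) replicate 2 all 9 were negative, with -0.02 for mt-Rnr1, -0.04 for mt-Rnr2, -0.13 for mt-Co1 and -0.02 for mt-Nd6, and 3 of 9 had an unadjusted p under 0.05. Without Dot1l(fl/+) replicate 3 mt-Rnr1 had 0.31 and mt-Rnr2 0.26, and 2 of 9 had an unadjusted p under 0.05. No share of all genes is set beside these counts. The median over the 9 members was -0.05, beside -0.003 over all genes, and the members' median became 0.03 and 0.04 when replicate 3 of Dot1l(fl/+) or of Dot1l(+/+) was left out. In Dot1l(fl/fl) against Dot1l(+/+) all 9 were positive, with a median of 0.14 beside 0.0009 over all genes and 50.4% of all genes positive. Over the 6 heavy-strand mRNAs alone the median there, 0.10, ran from 0.02 without Dot1l(+/+) replicate 1 to 0.17 without Dot1l(+/+) replicate 3. Against Dot1l(fl/+) all 9 were positive as well, with a median of 0.13 beside 0.002 for all genes. For those 6 mRNAs it was 0.19 and ran from 0.11 without Dot1l(fl/+) replicate 3 to 0.27 without Dot1l(fl/+) replicate 2. The members share libraries and normalization, and the 3 comparisons share genotypes, so these directions are not independent of each other. In the other two comparisons leaving out 1 library turned the sign of mt-Nd1, mt-Nd6 or an rRNA.

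Heavy-strand and light-strand transcripts were compared within each library, which removes what the members share. mt-Nd5 and mt-Nd6 are neighbours on opposite strands, and their ends overlap by 14 bases (chrM:13552-13565). The last 26 bases of each are shown in its own sense direction with the overlapping bases in capitals, since over those bases the genes differ only in strand.
mt-Nd5, chrM:13540-13565: tcttatactcaaTTAATCTCGAGTAA
mt-Nd6, chrM:13552-13577, minus strand: ttattatcgagaTTACTCGAGATTAA

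Per kilobase, the level of mt-Nd5 was 27.9 to 34.5 times that of mt-Nd6 in the Dot1l(+/+) libraries, 22.6 to 28.3 times in Dot1l(fl/+) and 22.0 to 37.5 times with both alleles floxed. mt-Cytb, on the far side of mt-Nd6, had ratios of 74.1 ± 9.57, 65.2 ± 6.61 and 74.5 ± 16.4 in the same order (mean ± SD, n = 3). The libraries were made with a directional kit, but the strand setting of the counting is not given in the sources used here, so whether mt-Nd6 holds reads from the opposite strand cannot be told apart.

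The mean log2 CPM of the 6 heavy-strand mRNAs minus the log2 CPM of mt-Nd6 was 7.18, 6.86 and 6.90 in Dot1l(+/+). It was 6.90, 6.70 and 6.72 in Dot1l(fl/+), and 7.26, 6.58 and 6.96 for Dot1l(fl/fl). The Dot1l(fl/fl) libraries held the highest and the lowest of the 9. The group means were 6.98 ± 0.18, 6.77 ± 0.11 and 6.93 ± 0.34 (SD, n = 3). Dot1l(fl/+) was therefore 0.21 below Dot1l(+/+), Dot1l(fl/fl) was 0.05 below it, and Dot1l(fl/fl) was 0.16 above Dot1l(fl/+). With 1 library left out, the first ran from -0.27 to -0.11, the latter without Dot1l(+/+) replicate 1. The second ran from -0.21 without Dot1l(fl/fl) replicate 1 to 0.13 without Dot1l(fl/fl) replicate 2, and the last from 0 to 0.34 without the same 2 libraries. With mt-Nd4 and mt-Nd5 alone as the heavy strand, Dot1l(fl/+) was 0.27 below Dot1l(+/+) and its 3 libraries lay below all 3 controls, by a margin from 6.483 to 6.492. In reads, mt-Nd6 had 1.26 ± 0.15 counts per 1000 heavy-strand mRNA counts in Dot1l(+/+), 1.43 ± 0.10 in Dot1l(fl/+) and 1.31 ± 0.31 for Dot1l(fl/fl) (SD, n = 3).

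**Figure D4:**
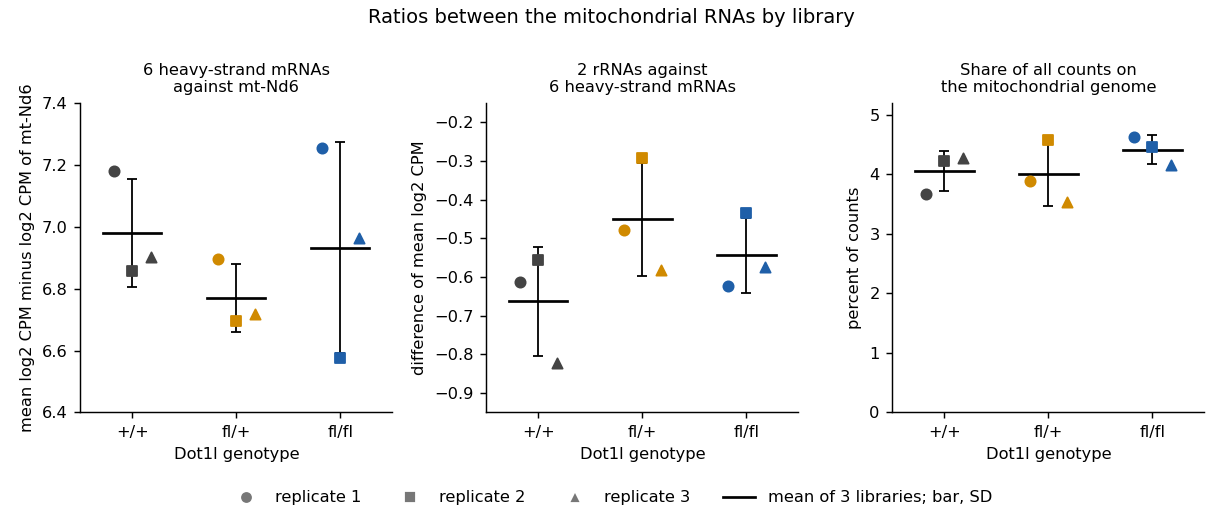
Left, mean log2 CPM of 6 heavy-strand mRNAs minus log2 CPM of mt-Nd6; middle, mean log2 CPM of the 2 rRNAs minus that of the 6 heavy-strand mRNAs; right, percent of all counts on 37 mitochondrial genes (from 0). Symbols are libraries by replicate number, lines and bars the mean and SD of 3 libraries, and the genotypes (x axis) overlap in all 3 panels.

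The rRNAs were also set against the heavy-strand mRNAs, with which they share the precursor. The mean log2 CPM of mt-Rnr1 and mt-Rnr2 minus that of the 6 mRNAs was -0.61, -0.55 and -0.82 in Dot1l(+/+), -0.48, -0.29 and -0.58 in Dot1l(fl/+), and -0.62, -0.43 and -0.57 for Dot1l(fl/fl). Replicate 2 had the highest rRNA level in each genotype. The difference of means was 0.21 between Dot1l(fl/+) and Dot1l(+/+), with 2 of 3 Dot1l(fl/+) libraries above all controls, and it ranged from 0.13 to 0.28 when 1 library was left out. Between Dot1l(fl/fl) and Dot1l(+/+) it was 0.12 and ranged from 0.04 to 0.17. This split was chosen after the values were seen and was not tested.

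Within the members, the 2 rRNAs kept a nearly fixed ratio. log2 CPM of mt-Rnr1 minus that of mt-Rnr2 was -0.95 ± 0.02 in Dot1l(+/+), -0.93 ± 0.05 in Dot1l(fl/+) and -0.87 ± 0.07 for Dot1l(fl/fl) (SD, n = 3). As percent of the counts of the 9 members, mt-Co1 took 22.2 ± 0.32, 22.7 ± 0.67 and 22.3 ± 0.44% in the 3 genotypes (SD, n = 3). mt-Rnr1 took 5.94 ± 0.44, 6.70 ± 0.59 and 6.52 ± 0.35%, and mt-Nd5 took 11.0 ± 0.23, 10.2 ± 0.71 and 10.8 ± 0.50%. mt-Rnr2 took 11.5 ± 0.90, 12.7 ± 0.86 and 11.9 ± 0.76%.

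Nuclear genes listed as rRNA-like were measured as well. Of 3 such genes, Gm42418, Gm26917 and Lars2, the summed level was 415 to 485 CPM in Dot1l(+/+), 740 to 1190 CPM in Dot1l(fl/+) and 340 to 619 CPM in Dot1l(fl/fl). The sum in Dot1l(fl/+) lay above that in both other genotypes, and Gm42418 made up most of it. Gm42418 had a log2 fold change of 1.28 in Dot1l(fl/+) against Dot1l(+/+) (SE 0.20, adjusted p = 0.412) and Lars2 one of 0.84 (adjusted p = 0.54), while Gm26917 had 0.11 (adjusted p = 0.92) and its lowest level, 22.2 CPM, in Dot1l(fl/+) replicate 3. None of the 3 is listed as sharing a 50-base word with mt-Rnr1 or mt-Rnr2, and their likeness to other rRNAs was not measured here. Their part in the mitochondrial values was not tested.

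The tRNA genes that passed the filter, mt-Ti, mt-Tq, mt-Tm, mt-Tw, mt-Tt and mt-Tp, had 0 of 6 with an unadjusted p under 0.05 in any comparison. mt-Tm, the methionine tRNA gene, had 57 to 95 counts, and its 3 Dot1l(fl/fl) libraries lay above all others, where 10.3% and 11.1% of all genes did not overlap with Dot1l(+/+) and with Dot1l(fl/+), with means of 3.52 CPM against 3.20 CPM in Dot1l(+/+) and 2.79 CPM in Dot1l(fl/+). The log2 fold change over Dot1l(fl/+) was 0.33 (SE 0.16, adjusted p = 0.776). Of those made from the light strand, mt-Tp had a log2 fold change of 0.52 between the same genotypes (SE 0.26, adjusted p = 0.778) and mt-Tq one of -0.34 (SE 0.37, adjusted p = 0.898).

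The nuclear genes that make and keep these RNAs were listed by role. Of 10 genes of mitochondrial transcription, 1 had an unadjusted p under 0.05 in Dot1l(fl/+) against Dot1l(+/+), lower, beside 4.09% of all genes, and 0 in the other comparisons. It was Mterf1a, a factor that binds the mitochondrial genome, at 2.47 ± 0.31 CPM in Dot1l(fl/+) (SD, n = 3) with a log2 fold change of -0.43 (SE 0.16, adjusted p = 0.541). Polrmt, the polymerase, had log2 fold changes of -0.09 and -0.14 in Dot1l(fl/+) and Dot1l(fl/fl) against Dot1l(+/+) (adjusted p = 0.764 and 0.999). Tfam, which packages the genome and opens its promoters, had 0.02 and -0.003, Tfb2m, the initiation factor, had -0.12 and 0.02, and Tefm, the elongation factor, had -0.04 and 0.21.

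Genes of RNA stability form the next list. Lrpprc and Slirp, which bind and stabilise mitochondrial mRNAs, had log2 fold changes of -0.08 and 0.18 in Dot1l(fl/+) and 0.03 and 0.16 for Dot1l(fl/fl) against Dot1l(+/+). Supv3l1 and Pnpt1, the helicase and nuclease of RNA decay, lay between -0.06 and 0.09 in both, and Grsf1, an RNA-binding protein of the RNA granule, measured 0.02 in both. None of these had an unadjusted p under 0.05. Of the 10 genes of this list 1 did, beside 3.6% of all genes higher at that level, Angel2, with 0.13 in Dot1l(fl/fl) against Dot1l(fl/+) (SE 0.05, adjusted p = 0.734).

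In the list of 21 genes of RNA processing and modification, 0 genes in Dot1l(fl/+) against Dot1l(+/+), 2 in Dot1l(fl/fl) against Dot1l(+/+) and 3 for Dot1l(fl/fl) against Dot1l(fl/+) had an unadjusted p under 0.05, all lower. Over all genes, 1.72% and 2.87% were lower at that level in the last 2 comparisons. Mrm3, which methylates the rRNA of mt-Rnr2, was the only gene in both counts, with log2 fold changes of -0.28 (SE 0.10, adjusted p = 0.999) and -0.23 (adjusted p = 0.733). The others were Fastkd1, a member of the FASTK family of mitochondrial RNA-binding proteins, with -0.16 in the former (adjusted p = 0.999), and Rcc1l with -0.21 and Ptcd1 with -0.17 in the latter (adjusted p = 0.768 for both). Of 12 genes of mtDNA replication and packaging, Exog, a mitochondrial nuclease, was the only gene at that level, with 0.17 in Dot1l(fl/+) against Dot1l(+/+) (adjusted p = 0.573), beside 4.3% of all genes higher. No gene of these 4 lists passed the adjusted threshold.

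Nuclear subunits of the same complexes were set beside the mitochondrial mRNAs. Of 36 nuclear complex I genes, 35 had a positive log2 fold change in Dot1l(fl/+) against Dot1l(+/+) and 20 had an unadjusted p under 0.05, all higher, beside 4.3% of all genes, and 0 passed the adjusted threshold. Their median was 0.19, where the 6 heavy-strand mRNAs had -0.08. Leaving out 1 control moved the latter to -0.15 (replicate 1) or -0.005 (replicate 3), and leaving out 1 Dot1l(fl/+) library moved it to -0.16 (replicate 2) or -0.02 (replicate 3). Ndufa2, a small subunit of complex I, had 0.55 (SE 0.13, adjusted p = 0.54). Of 19 nuclear genes of complexes III and IV, 19 were positive and 10 had an unadjusted p under 0.05, with a median of 0.28. Cox7b, a subunit of cytochrome c oxidase, had 0.34 (SE 0.07, adjusted p = 0.54), beside 0.01 for mt-Co1 of the same complex.

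In Dot1l(fl/fl) against Dot1l(+/+) the 2 genomes lay closer. There 30 of 36 nuclear complex I genes were positive with a median of 0.08, beside 0.10 for the 6 mitochondrial mRNAs (0.02 or 0.17 if control replicate 1 or 3 is left out, 0.04 if Dot1l(fl/fl) replicate 1 is), and 5 had an unadjusted p under 0.05, all higher, beside 2.21% of all genes. Between the floxed genotypes the directions were opposite: 34 of 36 nuclear complex I genes were lower in Dot1l(fl/fl) than in Dot1l(fl/+), with a median of -0.10, while the 6 mRNAs had a median of 0.19 (0.11 without Dot1l(fl/+) replicate 3). These nuclear lists hold genes whose pattern in these libraries was known beforehand, and no test of the difference between the lists was made.

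**Figure D5:**
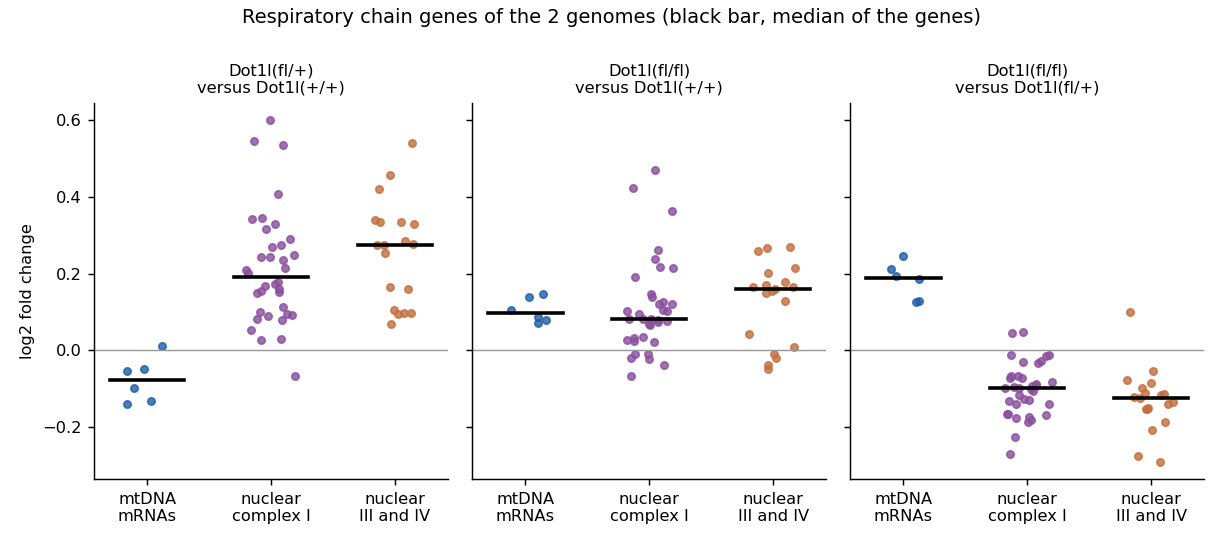
Log2 fold change (y axis) of the 6 heavy-strand mRNAs, 36 nuclear complex I genes and 19 nuclear genes of complexes III and IV (x axis) in the 3 comparisons. Each point is a gene and the black bar the median of the genes; in the left panel the mitochondrial median is -0.08 and the nuclear medians 0.19 and 0.28, and in the right panel they are 0.19, -0.10 and -0.12.

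Library by library, the 4 heavy-strand complex I mRNAs mt-Nd1, mt-Nd2, mt-Nd4 and mt-Nd5 were 6.85 ± 0.21 log2 CPM above the mean of the nuclear complex I genes in Dot1l(+/+), 6.53 ± 0.16 in Dot1l(fl/+) and 6.83 ± 0.15 for Dot1l(fl/fl) (SD, n = 3). All 3 Dot1l(fl/+) libraries were below all libraries of the other genotypes. mt-Co1 and mt-Cytb against the nuclear genes of complexes III and IV gave 6.97 ± 0.13, 6.70 ± 0.21 and 7.00 ± 0.11 (SD, n = 3), again with the 3 Dot1l(fl/+) libraries lowest. The difference between Dot1l(fl/+) and Dot1l(+/+) was -0.32 for complex I and -0.28 for complexes III and IV, beside pooled SDs of 0.19 and 0.17. The margins were small, since the highest Dot1l(fl/+) library had 6.64 and the lowest of the others 6.66 for complex I, and 6.824 and 6.827 for complexes III and IV. Leaving out Dot1l(+/+) replicate 3 gave -0.20 for complex I, and leaving out Dot1l(fl/+) replicate 3 gave -0.16 for complexes III and IV. These contrasts were chosen after the values were seen. Dot1l(fl/+) is also the genotype with the high rRNA-like level given above, and the part of that in the contrasts was not tested.

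Nuclear genes most like the members over the 9 libraries were sought among 13163 genes. The highest Pearson r with the mean log2 CPM of the 6 heavy-strand mRNAs were 0.954 for B3galt1, a galactosyltransferase, 0.954 for Eda, a ligand of the tumour necrosis factor family, 0.946 for Hapln1, a link protein of the extracellular matrix, 0.94 for Gpd2, the mitochondrial glycerol-3-phosphate dehydrogenase, and 0.94 for Rab6a, a GTPase of the Golgi. For mt-Nd6 they were 0.946 for Rin2, 0.945 for Chrdl1, a BMP antagonist, 0.939 for Tra2a, a splicing factor, 0.925 for Parvg and 0.922 for Eif4a2, a helicase of translation initiation. Of these 10 genes none was shared between the heavy-strand and the light-strand list. The points share library, depth and tissue composition, and the values are given as a description of these libraries.

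Markers of the other cells of the dissection were summed in the same way. The summed level of 5 astrocyte genes was 1347 to 1426 CPM in Dot1l(+/+), 1290 to 1540 CPM in Dot1l(fl/+) and 1344 to 1522 CPM in Dot1l(fl/fl). Of 5 microglia genes it was 180 to 193, 184 to 203 and 202 to 216 CPM, so that Dot1l(fl/fl) stood above Dot1l(+/+), and of 4 blood genes it was 96.6 to 274, 105 to 166 and 147 to 210 CPM. At an unadjusted p under 0.05, 2 microglia genes (Csf1r and Aif1) were higher in Dot1l(fl/fl) than in Dot1l(+/+), beside 2.21% of all genes. Neither passed the adjusted threshold. Oligodendrocyte and GABA neuron sums overlapped between all genotypes. Of the 6 oligodendrocyte genes, 2 (Mog and Cnp) were higher in Dot1l(fl/+) than in Dot1l(+/+) and 3 (Mbp, Mag and Cnp) lower in Dot1l(fl/fl) than in Dot1l(fl/+) at an unadjusted p under 0.05, beside 4.3% and 2.87% of all genes, with 0 past the adjusted threshold. The sum of 4 endothelial genes was 181 to 191, 185 to 196 and 180 to 182 CPM, lower in Dot1l(fl/fl) than in all Dot1l(fl/+) libraries. Of the 9 dopamine neuron genes, 3 in Dot1l(fl/+) and 8 for Dot1l(fl/fl) were lower than in Dot1l(+/+) at an unadjusted p under 0.05, beside 4.09% and 1.72% of all genes, with 0 past the adjusted threshold of the edgeR fit without a replicate block. The part of cell proportions in the members' values was not tested.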

How the data were processed

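RNA was sequenced from 9 libraries, 3 for each of 3 genotypes, each a pool of 3 mice. Per the labels and the study's methods, the authors made directional libraries, sequenced them on a NextSeq 500, and deposited raw counts per Ensembl gene on GRCm38.p4; the submitters' processing notes name bcl2fastq 2.17, Trimmomatic 0.30 and DESeq2 1.10.1. The aligner, the counting tool and its strand setting, the annotation release and the removal of rRNA are not given in the sources used here. The series' design text describes sorted embryonic cells, whereas every title gives 180 days, and the titles were followed. The authors' 3 deposited tables of DESeq2 comparisons (mean normalised counts, log2 fold changes with errors, Wald scores, p-values) were not used.

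Identifiers were matched to GENCODE M21 (GRCm38), which named 47224 of 47729 rows with 99.91% of counts. Genes were filtered with filterByExpr (17671 kept), normalised by TMM (factors 0.9878 to 1.009) and tested with the edgeR 4.0.16 quasi-likelihood test (R 4.3.3, limma 3.58.1) with genotype as the single factor over the 9 libraries and Benjamini-Hochberg adjustment. SEs were taken as the log2 fold change over the square root of F, and 95% confidence intervals from the t distribution of the fit. CPM are TMM-normalised, except the summed marker levels, which are CPM over all counts without TMM; log2 CPM used a prior count of 2. The common biological coefficient of variation was 8.81%. Tables were handled in pandas 2.3.3 and numpy 2.4.6 under Python 3.11.15, and plots were made in matplotlib 3.10.9. Shared words were counted against the GENCODE M21 transcripts in both orientations. The fit was tested on simulated data.

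The named genes are the 9 members, other mitochondrial genes with counts, Dot1l, the 5 nuclear genes with a mean of at least 80 normalised counts most correlated with the heavy-strand mRNAs and with mt-Nd6, 9 named regulators, and up to 4 genes of each nuclear list with an unadjusted p under 0.05. Copies of mitochondrial genes were named after their counts were seen. The members and lists were chosen with earlier results of these data known. The p-values measure the spread between pools. Alternatives were DESeq2 1.42.0 (all libraries, or the 2 genotypes compared), its size factors in edgeR, normalisation without mitochondrial and rRNA-like genes, 2 genotypes alone, no filter, the replicate number as a block, scaling to the summed members, other definitions of the strand and share values, and each library left out.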

Additional observations from a re-analysis of the deposited data

How the results depend on the processing

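Counting error was under 0.5% for the 8 heavy-strand members, and no other depth was tried. mt-Nd6 has the fewest counts and the widest intervals. With 3 pools a genotype, log2 differences of about the size of the confidence intervals could not be told from 0. Levels of mt-Co1 and mt-Nd4 against other genes depend on the length used. The strand values and the share of counts moved by less than 1 SD under all alternatives run, as did the rRNA and nuclear contrasts with 1 library left out, an alternative chosen after seeing the data, though signs could turn: the share in Dot1l(fl/+) against Dot1l(+/+), -0.06 percentage points, ran from -0.35 without Dot1l(fl/+) replicate 2 to 0.18 without Dot1l(fl/+) replicate 3. Of 243 log2 fold changes of members recomputed with 1 library left out, 18 changed sign.

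The number of genes called in Dot1l(fl/+) against Dot1l(+/+), Dot1l(fl/fl) against Dot1l(+/+) and Dot1l(fl/fl) against Dot1l(fl/+), 0 in each, was 7, 3 and 11 with DESeq2 on all libraries, 45, 8 and 8 with DESeq2 on the genotypes compared, 251, 118 and 164 without the filter, and 1 and 4 in the first 2 with edgeR on the genotypes compared. Leaving out 1 library gave 0 to 5, 0 to 4 and 0 to 12 genes, the highest in each case without Dot1l(fl/+) replicate 2, and in the second also without Dot1l(fl/+) replicate 3. Members with an unadjusted p under 0.05 numbered 4 and 5 in the first 2 comparisons without the filter and 4 in the second with edgeR or DESeq2 on the genotypes compared. With 1 library left out they numbered 0 to 3, 0 to 2 and 0 to 8. The cause was not tested. The share of all genes at that level is not given beside these counts of members or beside those of the replicate block below.

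The replicate number as a block gave 0, 3 and 3 genes called and 0, 2 and 4 members at an unadjusted p under 0.05, and it changed no call of a member. The genes called were the dopamine neuron markers Th (adjusted p = 0.0258), Slc6a3 (0.0258) and Slc18a2 (0.0483) in Dot1l(fl/fl) against Dot1l(+/+), all lower, and Clic6 (log2 fold change -1.67), Pmch (-5.35) and Ttr (-3.61), genes of choroid plexus and hypothalamus, in Dot1l(fl/fl) against Dot1l(fl/+). The study's methods describe pools built from sets of the 3 genotypes matched by nest, but no source used here ties the replicate numbers to those sets. Same-numbered libraries correlated at 0.022 to 0.317 over 9 pairs, and 15 of 18 best matches had the same number, a hint from the data. Between same-numbered libraries, heavy minus light strand was lower in Dot1l(fl/+) than in Dot1l(+/+) in 3 of 3 sets (-0.29, -0.16 and -0.18) and rRNA minus mRNA higher in 3 of 3 (0.14, 0.26 and 0.24), while both were mixed in the other comparisons.

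Relative to the summed counts of the 9 members, which sets their total equal by construction, the median in Dot1l(fl/fl) against Dot1l(+/+) was 0.008 and that against Dot1l(fl/+) -0.021. Single members turned to -0.057 for mt-Nd1, -0.043 for mt-Nd2, -0.051 for mt-Nd4 and -0.023 for mt-Nd5 in the former, and in the latter to -0.038 for mt-Rnr1, -0.097 for mt-Rnr2, -0.029 for mt-Nd1, -0.021 for mt-Co1 and -0.112 for mt-Nd6. With 1 library left out, log2 fold changes of Dot1l(fl/+) against Dot1l(+/+) ran from -0.021 to 0.306 for mt-Rnr1, -0.036 to 0.26 for mt-Rnr2, -0.155 to 0.044 for mt-Nd1, -0.129 to 0.11 for mt-Co1, -0.036 to 0.217 for mt-Nd6 and -0.121 to 0.03 for mt-Cytb, and without a change of sign from -0.168 to -0.015 for mt-Nd2, -0.241 to -0.033 for mt-Nd4 and -0.219 to -0.082 for mt-Nd5. Those of Dot1l(fl/fl) against Dot1l(+/+) ran from -0.011 to 0.168 for mt-Nd1 and -0.041 to 0.273 for mt-Nd6, and against Dot1l(fl/+) from -0.038 to 0.289 for mt-Rnr1, -0.077 to 0.22 for mt-Rnr2 and -0.164 to 0.174 for mt-Nd6, and without a change of sign from 0.137 to 0.256 for mt-Nd2, 0.112 to 0.321 for mt-Nd4, 0.175 to 0.292 for mt-Nd5 and 0.116 to 0.267 for mt-Cytb. The other members' ranges in Dot1l(fl/fl) against Dot1l(+/+) are not given singly. The median of the 6 heavy-strand mRNAs there ran from 0.023 to 0.168, lowest without Dot1l(+/+) replicate 1.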
